A study of Arabidopsis thaliana with 32 samples.

Results

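The genes described here are the parts of the photosynthetic and respiratory electron transport chains that the plastid and the mitochondrion of *Arabidopsis thaliana* encode in their own genomes. They were picked by symbol alone, and not by any measured value, under a rule chosen with earlier results of these data known. Plastid members have symbols that begin with psa, psb, pet, ndh or atp followed by a capital letter, and mitochondrial members have symbols that begin with nad, cox or atp followed by a digit, or are cob. Among 28477 probe sets on the array, 58 carried such a symbol and listed 1 gene only. Of these, 38 probe sets stood for 38 plastid genes and 20 probe sets stood for 11 mitochondrial genes.

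Roots of 16-day-old Columbia-0 wild-type plants, kept in hydroponic solution, were collected 15 min after transfer to solution with or without an added solute. There were 16 groups with 2 arrays each. The salt NaCl was given at 25, 50, 75 and 100 mM. The sugar alcohol sorbitol was given at 50, 100 and 150 mM. Polyethylene glycol 8000, called PEG below, had labelled doses of 75, 100, 125 and 150 mM. Ethylene glycol was used at 50, 100, 150 and 200 mM, and control roots were moved to plain solution. Total RNA of roots was measured on Affymetrix whole-transcript arrays of 1 colour, and all values below are log2 expression values as deposited, or differences between them. The labels do not state whether both arrays of a group were made from different plants or cultures, so each p-value reflects only the spread between these arrays, which may be technical. In whole-root RNA, fewer cells of a type and less RNA per cell cannot be told apart.

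Plastids use photosystem II, the cytochrome b6f complex and photosystem I to move electrons along the thylakoid membrane, and the NADH dehydrogenase-like (NDH) complex returns electrons to the chain around photosystem I. An ATP synthase in the same membrane uses the proton gradient. Plastid genes are read largely as polycistronic RNAs by a bacterial-type polymerase that the plastid encodes and by phage-type polymerases that the nucleus encodes. Root plastids are mostly not photosynthetic, yet they carry the same genome. Plant mitochondria encode core subunits of complexes I, III and IV and of their own ATP synthase, and the messages of nad1, nad2 and nad5 are each joined by trans-splicing from separately transcribed pieces.

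The plastid members fell into 13 genes of photosystem II, 10 of the NDH complex, 6 of the cytochrome b6f complex, 5 of photosystem I and 4 of the ATP synthase. Another 5 plastid genes of the same symbols, psbC, psbD, atpB, atpE and ndhB, lay on probe sets with several gene entries and are not members. For ndhB these entries all carry the symbol ndhB. The mitochondrial members comprised 17 probe sets for complex I, 2 for complex IV and 1 for the ATP synthase. Complex I was covered by 7 probe sets for nad1, 3 for nad2, 2 for nad5 and 1 each for nad4, nad4L, nad6, nad7 and nad9. The single gene of complex III, cob, as well as cox3 and atp9, appeared only on probe sets listed together with nuclear loci. Chromosome 2 of *Arabidopsis* holds a copy of much of the mitochondrial genome, so RNA of such copies cannot be told apart from mitochondrial RNA on shared probes, and the mitochondrial values are uncertain to that extent.

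Sample titles are numbered 17 to 32, called run 1 here, and 33 to 48, called run 2. Every group has 1 array in each run, and the labels do not say what the runs are. The first principal component of all probe sets held 50.4% of the variance and parted the runs, whereas the second held 5.98% and did not. Array medians over all probe sets lay between 4.11 and 4.24. The run was therefore kept as a block in every fit with limma, and a probe set counts as called at an adjusted p under 0.05 over all 28477 probe sets.

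Averaged over all arrays, the plastid probe sets spanned 4.10 to 10.39 and the mitochondrial ones 4.48 to 11.13, values that depend on each probe set's own probes and are not compared between genes. By complex the means ran from 8.66 to 9.71 for photosystem I, 4.10 to 10.23 for photosystem II, 7.77 to 9.44 for cytochrome b6f, 7.01 to 8.74 for NDH and 8.86 to 10.39 for the plastid ATP synthase. Only psbT among the plastid members, and a pair of nad1 probe sets among the mitochondrial ones, had an array value below 5. For 8 nuclear genes of the photosystems and their antennae, averages were 1.62 to 4.46 in run 2 and 1.44 to 4.44 in run 1. These were PSB27, PSBY, PSBW, PSAE-1, PSAN, LHCB4.1, LHCB4.2 and LHCB4.3, which had a named probe set that lists 1 gene. Their levels are likewise not compared with those of the members. The nuclear NDH subunit genes NdhL, NdhU and NdhN averaged 2.1 to 2.18 in run 2 and 1.96 to 2.07 in run 1. Of 14 listed root markers 2 had a named probe set that lists 1 gene. These root hair expansins, EXPA7 and EXPA18, averaged 7.73 and 6.59 in run 2 and 6.96 and 5.98 in run 1. Of 14 green-tissue markers 2 had such a probe set. Rubisco activase RCA averaged 3.65 in run 2 and 3.19 in run 1, and FMA averaged 1.85 in run 2 and 1.61 in run 1.

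Between the runs most plastid members were lower in run 2 while most mitochondrial members were higher. In run 2, 27 of 38 plastid members were lower and 9 higher than in run 1, with psaB and psbL not called, and the median difference was -0.39. Among the mitochondrial probe sets 17 of 20 were higher and 2 lower, cox1 was not called, and the median difference was 0.25. Over the whole array 62.7% of probe sets were called, with 34.5% of all probe sets higher in run 2 and 28.1% lower, with a median difference of 0.06. Runs that did not overlap at all were seen for 18 plastid members below and 3 above, and for 9 mitochondrial probe sets above and 0 below, beside 7.08% below and 5.47% above over the whole array. Centring each array on its median changed the calls of petA, psaB, psbL and psaC and the direction of cox1, to 11 higher and 25 lower plastid members, while no member called in both settings changed direction.

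**Figure D1:**
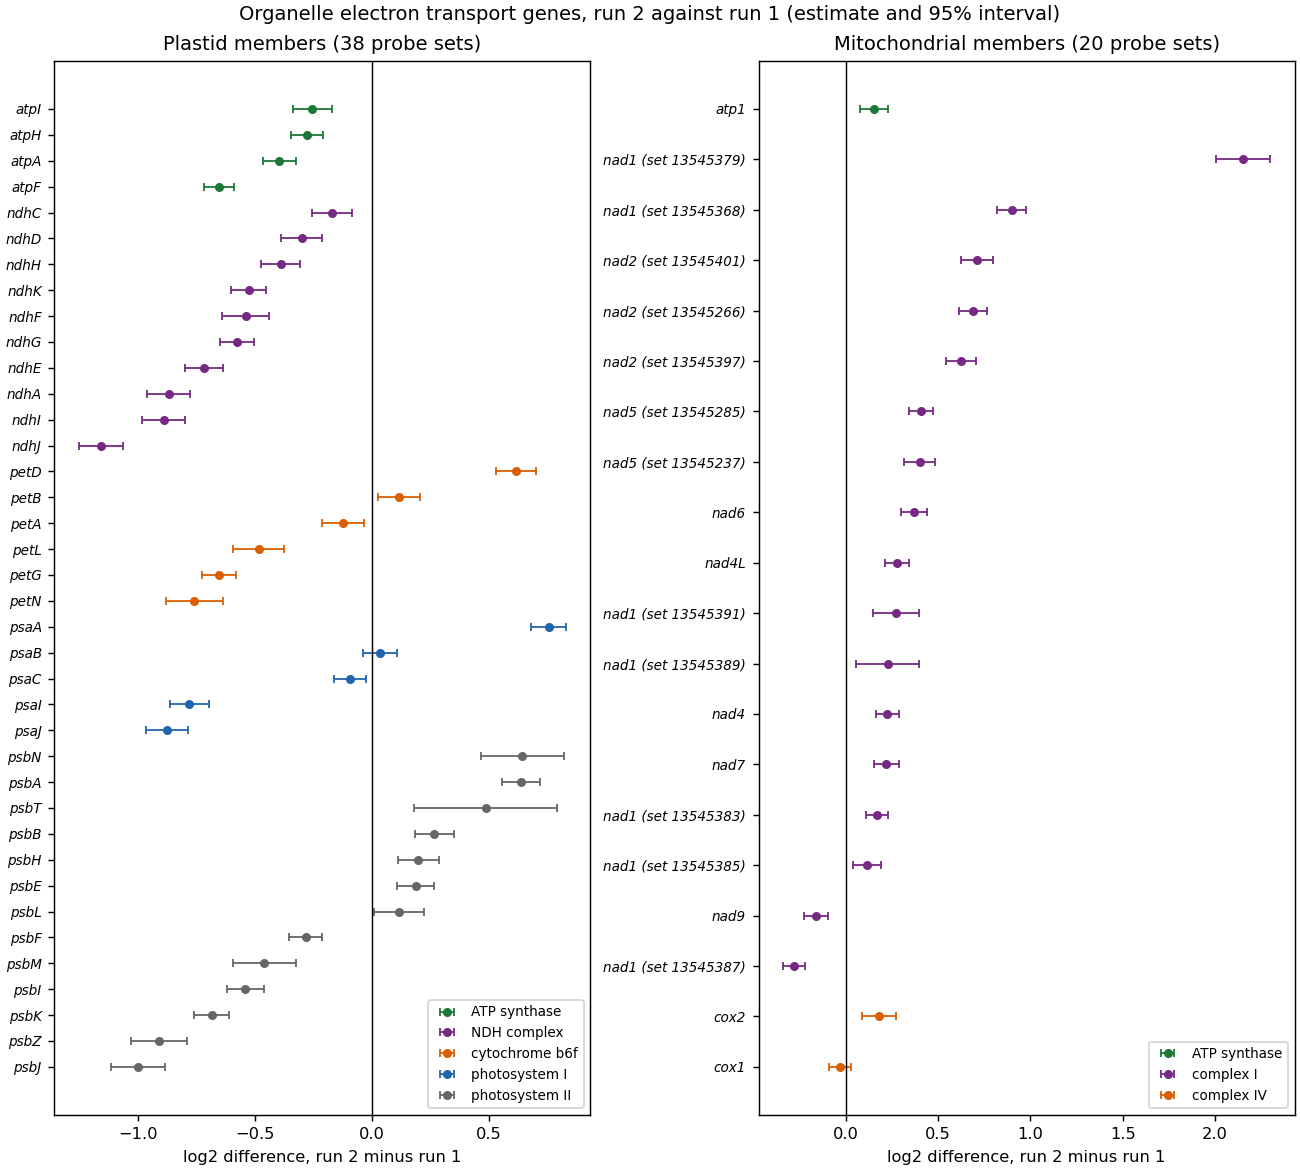
Log2 difference between run 2 and run 1 (x axis, points) with its 95% interval (bars) for each of the 38 plastid probe sets (left) and 20 mitochondrial probe sets (right), coloured by complex. All 10 NDH genes and all 4 plastid ATP synthase genes lie left of 0, and 17 mitochondrial probe sets lie to the right.

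All 10 genes of the NDH complex were lower in run 2. They were lower by 0.17 (ndhC) to 1.16 (ndhJ) on the log2 scale, and in 8 of them no run 2 array reached the lowest run 1 array. The largest difference was that of ndhJ, a subunit of the arm that faces the stroma, whose values in run 2 had a lowest of 7.04, a median of 7.20 and a highest of 7.30, against 8.10, 8.29 and 8.63 in run 1 (difference -1.16, SE 0.05, adjusted p = 6.74e-18). Every run 2 array lay below every run 1 array. For ndhI, a ferredoxin-type iron-sulphur subunit, the values were 7.17, 7.40 and 7.53 in run 2 and 7.99, 8.26 and 8.53 in run 1 (-0.89, adjusted p = 1.05e-15). For ndhA, a membrane subunit, they were 8.10, 8.31 and 8.43 in run 2 and 8.89, 9.17 and 9.38 in run 1 (-0.87, adjusted p = 1.42e-15). Neither gene's runs overlapped. The runs of ndhC (-0.17) and ndhH (-0.39) overlapped.

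All 4 genes of the plastid ATP synthase were lower in run 2 as well. The stalk subunit gene atpF had a lowest of 9.58, a median of 9.69 and a highest of 9.79 in run 2, against 10.19, 10.34 and 10.49 in run 1 (-0.66, SE 0.03, adjusted p = 4.70e-16). Its runs did not overlap, nor did those of atpA, the alpha subunit (-0.40). The runs of atpH, the ring subunit (-0.28), and atpI, a membrane subunit (-0.26), overlapped.

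Photosystem I was split. The reaction centre gene psaA was higher in run 2, with a lowest of 9.31, a median of 9.62 and a highest of 9.78, against 8.71, 8.85 and 9.0 in run 1 (0.76, SE 0.04, adjusted p = 4.16e-16), and its runs did not overlap. Its partner in the reaction centre and its neighbour in the genome, psaB, differed by 0.04 (95% interval -0.04 to 0.11) and was not called. The small subunit genes psaJ and psaI were lower in run 2 without overlap: psaJ had 8.08, 8.24 and 8.33 in run 2 and 8.81, 9.07 and 9.35 in run 1 (-0.88, adjusted p = 1.03e-15). The values of psaI were 8.63, 8.78 and 8.92 in run 2 and 9.26, 9.55 and 9.79 in run 1 (-0.78, adjusted p = 1.64e-15). The gene psaC, which encodes the subunit with the terminal iron-sulphur clusters, was lower by 0.10 (adjusted p = 0.0146), with overlapping runs.

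Photosystem II had 6 genes higher, 6 lower and 1 not called. The D1 reaction centre protein gene psbA had a lowest of 10.03, a median of 10.22 and a highest of 10.33 in run 2, against 9.32, 9.58 and 9.82 in run 1 (0.64, SE 0.04, adjusted p = 1.27e-13), and its runs did not overlap. The other genes higher in run 2 were psbN, a gene needed for photosystem II assembly in tobacco (0.64, SE 0.09, adjusted p = 2.69e-07), psbT (0.49), psbB, the CP47 antenna (0.27, adjusted p = 1.99e-06), psbH (0.20) and psbE (0.19, adjusted p = 0.000137). All of them had overlapping runs except psbA. The lower genes were psbJ (-1.0), psbZ (-0.91), psbK (-0.69), psbI (-0.54), psbM (-0.46) and psbF (-0.28), and the first 4 of these had no overlap. The subunits of cytochrome b559 thus went opposite ways, psbE up and psbF down.

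In the cytochrome b6f complex, 2 genes were higher and 4 lower. The subunit IV gene petD had a lowest of 9.03, a median of 9.22 and a highest of 9.26 in run 2, against 8.31, 8.54 and 8.77 in run 1 (0.62, SE 0.04, adjusted p = 6.45e-13), without overlap. The cytochrome b6 gene petB was higher by 0.12. Cytochrome f (petA) was lower by 0.13, and the small subunit genes petN, petG and petL were lower by 0.76, 0.66 and 0.48.

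Grouped by which members lie next to each other in the RefSeq plastid gene order, several stretches had a single direction. The 6 members psbB, psbT, psbN, psbH, petB and petD, from 2 complexes, were all higher in run 2, by 0.12 to 0.64. The 7 members ndhD, psaC, ndhE, ndhG, ndhI, ndhA and ndhH were all lower, by 0.10 to 0.89. The stretches ndhJ, ndhK, ndhC and atpA, atpF, atpH, atpI and the pairs psbK, psbI and petN, psbM were lower throughout. The stretch petA, psbJ, psbL, psbF, psbE, petL and petG was mixed, with 1 higher, 5 lower and 1 not called. The grouping used position and not strand, so a stretch need not be 1 unit of transcription. Neighbours on the same strand can share 1 RNA and are then not independent measurements. Across the 38 plastid genes, the run difference and the RefSeq gene length had a Spearman correlation of 0.24, a description over genes of the same 32 arrays.

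Mitochondrial members differed by gene and, within nad1, by probe set. The largest difference was in nad1 probe set 13545379, with a lowest of 5.64, a median of 5.98 and a highest of 6.15 in run 2, against 3.24, 3.73 and 4.24 in run 1 (2.15, SE 0.07, adjusted p = 2.99e-19). Its lowest run 2 array was above its highest run 1 array by more than the whole range within either run. Its run 1 mean of 3.77 was a low level, below the run 1 array medians over all probe sets (4.17 to 4.24). Another nad1 probe set, 13545368, had 9.57, 9.66 and 9.98 in run 2 and 8.61, 8.80 and 8.99 in run 1 (0.90, adjusted p = 3.12e-17). The probe set 13545387 was lower in run 2 with 10.75, 10.81 and 10.94, against 10.92, 11.09 and 11.21 in run 1 (-0.28, adjusted p = 3.73e-09). The other 4 nad1 probe sets were higher by 0.12 to 0.27 with overlapping runs. The gene nad1 therefore had no single run difference, and its probe sets cannot be averaged into one.

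**Figure D2:**
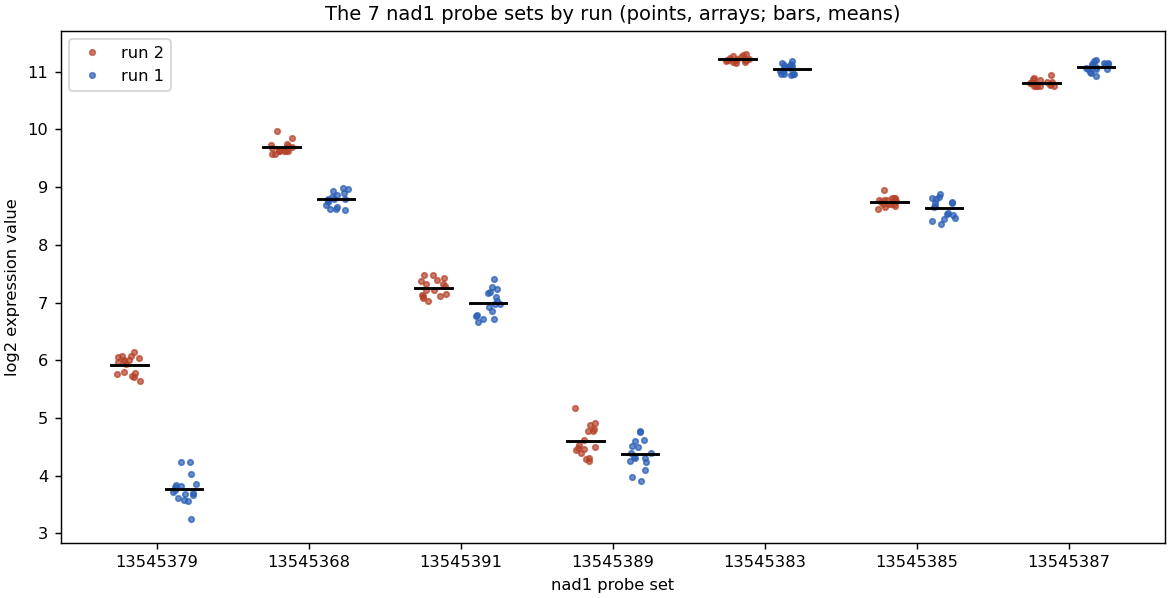
Log2 expression value (y axis) of the 7 nad1 probe sets (x axis) on the 16 run 2 arrays and the 16 run 1 arrays, with bars at the run means. Probe set 13545379 averaged 5.92 in run 2 and 3.77 in run 1, whereas 13545387 averaged 10.81 in run 2 and 11.09 in run 1.

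The 3 probe sets of nad2, another membrane subunit of complex I, were alike. Probe set 13545266 had a lowest of 10.29, a median of 10.41 and a highest of 10.51 in run 2, against 9.48, 9.70 and 9.89 in run 1 (0.69, adjusted p = 4.37e-15), and the others differed by 0.71 and 0.63. None of the 3 had overlapping runs. Both nad5 probe sets were higher without overlap (0.41 and 0.40), as were nad4L (0.28) and nad4 (0.23). The genes nad6 (0.37), nad7 (0.22), cox2 of complex IV (0.18) and atp1, the alpha subunit of the ATP synthase (0.15), were higher with overlap. The peripheral-arm subunit gene nad9 was lower by 0.16 (adjusted p = 5.90e-05), and cox1, the catalytic core of complex IV, differed by -0.03 (95% interval -0.09 to 0.03) and was not called.

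Other genes of the same genomes were read beside the members. Among 25 plastid genes with symbols outside the rule, 18 were lower and 5 higher in run 2, with a median of -0.26. The Rubisco large subunit gene rbcL was higher (9.78 in run 2 and 9.13 in run 1), and the ribosomal protein genes rpl32 and rpl33 were lower by 1.51 and 1.05. Of 4 other mitochondrial genes 3 were higher in run 2, among them matR, a maturase gene in a nad1 intron (0.94). The mixed-gene probe set of psbC and psbD was higher by 0.94, and that of atpB and atpE was lower by 0.25. The probe sets that list only entries of ndhB were lower by 0.20, with identical values. Among mixed-gene probe sets with nuclear loci, those of nad1 were all higher in run 2, by 0.45 to 1.13, and that of cox2 by 0.405. Several of the nad1 and cob probe sets had values identical to another and are not separate measurements. The probe sets of cox3 differed by -0.14 and 0.88, those of cob by -0.19 to 0.36, and those of atp9 by 0.13 and 0.53. Of the 8 nuclear photosystem genes 3 were higher and 1 lower, with differences of -0.23 to 0.19. The 4 marker genes were all higher in run 2: EXPA7 by 0.77, EXPA18 by 0.61, RCA by 0.46 and FMA, a guard cell factor, by 0.24. Their part in the organelle differences was not tested.

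The study's own comparison set each solute against the control, to ask how roots respond to osmotic change within 15 min. No plastid or mitochondrial member was called for any solute. For the averages over the doses of NaCl, sorbitol, PEG and ethylene glycol, limma called 0 of 58 probe sets each time, beside 0.207%, 0.133%, 0.421% and 0.00702% of the whole array. At an unadjusted p under 0.05 the plastid counts were 3, 1, 2 and 3 of 38 and the mitochondrial counts 7, 2, 2 and 0 of 20, where the whole array had 8.84%, 9.65%, 11.5% and 4.49%. Dose slopes gave 0 called for each solute, with 0 to 2 plastid and 0 to 4 mitochondrial probe sets at an unadjusted p under 0.05 (whole array 1.09%, 0.478%, 1.01% and 0.214% called and 9.47%, 8.5%, 14.5% and 5.05% at an unadjusted p under 0.05). Each of the 15 single doses also gave 0, with 0 to 3 plastid and 0 to 6 mitochondrial probe sets at an unadjusted p under 0.05 (whole array 0.151% of probe set and dose pairs called and 7.17% at an unadjusted p under 0.05). A test for any difference among the groups called 0, with 1 plastid and 1 mitochondrial probe set at an unadjusted p under 0.05 beside 10.0% of the array at an unadjusted p under 0.05 and 0.773% called. The smallest adjusted p of that test was 0.0768, for ndhK.

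The plastid averages were between -0.38 and 0.27 and the mitochondrial ones between -0.41 and 0.20, and the median half-width of the 95% intervals was 0.19 and 0.17. Plastid medians were -0.07 for NaCl, -0.06 for sorbitol, -0.05 for PEG and 0.09 for ethylene glycol. Mitochondrial medians were -0.13, -0.09, -0.08 and -0.01 in the same order. All 4 averages share the same 2 control arrays.

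Among plastid members, the 3 with the smallest p for NaCl lie next to each other in the genome. NaCl minus control was -0.22 for ndhC (95% interval -0.41 to -0.02, adjusted p = 0.497), -0.23 for ndhJ (adjusted p = 0.515) and -0.17 for ndhK (adjusted p = 0.548). The mitochondrial probe set with the smallest p, nad1 13545391, stood at -0.41 (95% interval -0.68 to -0.13, adjusted p = 0.313). For PEG the smallest p values belonged to psbB, at 0.24 (adjusted p = 0.302), and to nad6, at -0.24 (adjusted p = 0.209). The PEG slope of nad6 was -0.20 per 100 mM as labelled (adjusted p = 0.0989). For ethylene glycol psbB stood at 0.27 (95% interval 0.08 to 0.45, adjusted p = 0.925) and for sorbitol ndhJ stood at -0.24 (adjusted p = 0.474).

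The control arrays bear on all of these values. On the median over the 38 plastid members, the run 2 treated arrays lay at 8.42 to 8.61 and the run 2 control at 8.31, below all 15. In run 1 the treated arrays lay at 8.72 to 9.11 and the control at 9.08, above 14 of 15. On the mitochondrial median, the run 2 treated arrays lay at 9.90 to 10.16 and the control at 10.07, above 12 of 15, and the run 1 treated arrays lay at 9.50 to 9.84 and the control at 9.89, above all 15. Singly, 9 plastid members had a run 2 control below every treated array, beside 6.12% of the whole array. A run 1 control above every treated array was seen for 11 plastid and 13 mitochondrial members, beside 5.5% of the whole array.

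**Figure D3:**
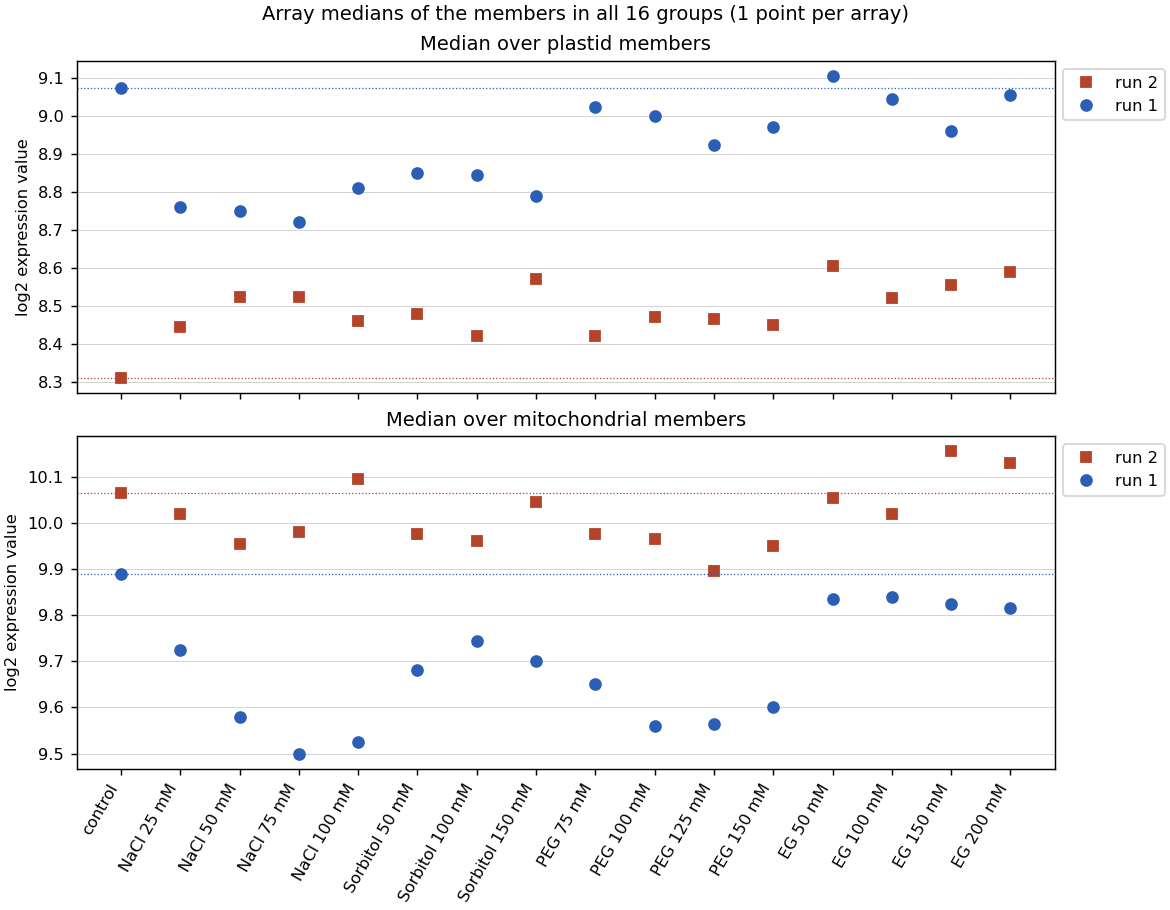
Median log2 expression value (y axis) over the plastid members (top) and the mitochondrial members (bottom) on each array of the 16 groups (x axis; EG, ethylene glycol), with dotted lines at each run's control. The run 2 control is the lowest run 2 array for the plastid members at 8.31, and the run 1 control is the highest run 1 array for the mitochondrial members at 9.89.

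Read within a run, the plastid differences under NaCl, sorbitol and PEG pointed opposite ways. For NaCl the plastid median difference from the control was 0.12 in run 2 and -0.27 in run 1, with 32 of 38 members higher in run 2 and 38 of 38 lower in run 1. For sorbitol it was 0.08 and -0.21, for PEG 0.07 and -0.11, and for ethylene glycol 0.19 and 0.01, in each case run 2 before run 1. The mitochondrial medians were near 0 in run 2, from -0.03 to 0.07, and below 0 in run 1, from -0.26 to -0.08. The plastid medians near 0 over both runs for NaCl, sorbitol and PEG thus combine differences of opposite sign.

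**Figure D4:**
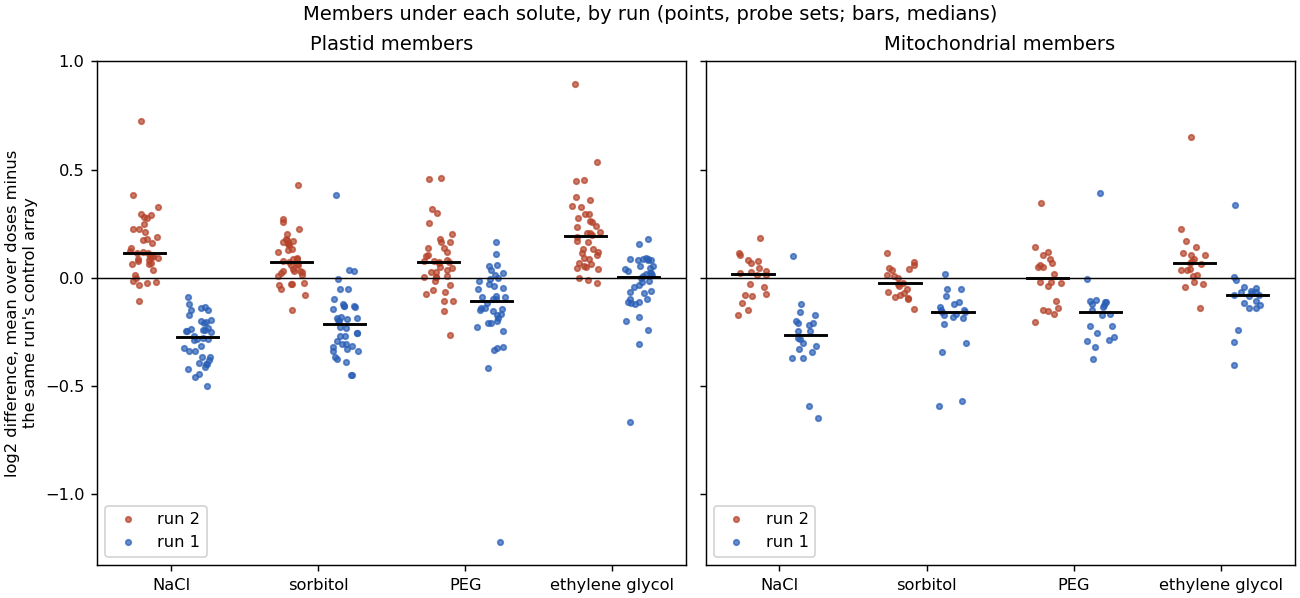
Log2 difference of each plastid (left) and mitochondrial (right) probe set between the mean over a solute's doses and the control array of the same run (y axis), for the 4 solutes (x axis), in run 2 and in run 1, with bars at the medians. Under NaCl the plastid medians were 0.12 in run 2 and -0.27 in run 1.

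The gene psbB is an example. In run 2 its treated arrays had a lowest of 8.76, a median of 8.88 and a highest of 9.09, and its control stood at 8.45, below all of them. In run 1 its treated arrays ran over 8.42 to 8.77 and its control stood at 8.69, inside that range. Without control replicate 1 (the run 1 control), psbB was called for PEG (0.51, adjusted p = 0.0160) and ethylene glycol (0.54, adjusted p = 0.0310) in limma, so the call rests on which control array is kept.

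A fit with a separate slope per run asked whether the dose slopes differed between runs. In it the 4 solutes shared 1 intercept per run, estimated from all arrays of that run. A level difference of a solute's arrays from the other arrays can thus enter its slope. Such a slope need not equal that over the control and the solute's own arrays. For NaCl all 38 plastid members and 19 of 20 mitochondrial probe sets had the higher slope in run 2, and 26 and 11 of them had an unadjusted p under 0.05 against 7.48% of the array. None was called, with smallest adjusted p values of 0.0855 for petL and 0.122 for cox2 and a nad2 probe set (13545397), and 0.0105% of the array called. With the shared intercept, the petL slope was 0.34 in run 2 and -0.49 in run 1, per 100 mM. For sorbitol 11 plastid and 3 mitochondrial probe sets had an unadjusted p under 0.05, for PEG 4 and 4, and for ethylene glycol 4 and 2, again with 0 called in limma (whole array 0.0%, 0.0421% and 0.0878% called and 6.38%, 9.24% and 4.45% at an unadjusted p under 0.05).

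Comparing solutes with each other at shared doses leaves the control out. These doses are equal in labelled mM only, which need not mean equal osmotic strength. Most plastid members had lower values in the other solutes than in ethylene glycol, a small molecule that enters cells readily. NaCl minus ethylene glycol at 50 and 100 mM had a plastid median of -0.17, with 36 of 38 members below 0, 19 at an unadjusted p under 0.05 and 1 called, beside 11.5% and 0.446% of the array. Sorbitol minus ethylene glycol at 50, 100 and 150 mM had a median of -0.15, with 36 members below 0, 22 at an unadjusted p under 0.05 and 0 called in limma, beside 15.9% and 0.313% of the array. PEG minus ethylene glycol at 100 and 150 mM had a median of -0.12, with 34 members below 0. Of the 38, 7 had an unadjusted p under 0.05, near the whole-array share of 14.7%, and 0 were called, beside 0.126%. These unadjusted counts of 19, 22 and 7 became 11, 13 and 1 after centring each array on its median, and 14, 20 and 1 after quantile normalisation, and the medians then lay between -0.14 and -0.04. The 3 comparisons share ethylene glycol arrays. Read within each run, 29 of 38 members were lower in both runs with NaCl, 32 with sorbitol and 27 with PEG. No whole-array share was computed for the counts below 0 or lower in both runs.

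Mitochondrial members had smaller differences from ethylene glycol, with medians of -0.11 for NaCl, -0.06 for sorbitol and -0.05 for PEG. In these, 5, 5 and 3 of 20 probe sets had an unadjusted p under 0.05, beside 11.5%, 15.9% and 14.7% of the array. None was called, beside 0.446%, 0.313% and 0.126%. NaCl against sorbitol, NaCl against PEG and sorbitol against PEG gave 0 called members, with 0, 6 and 3 plastid and 1, 0 and 0 mitochondrial probe sets at an unadjusted p under 0.05 (whole array 0.242%, 0.323% and 0.0773% called and 7.44%, 7.52% and 9.07% at an unadjusted p under 0.05). The 25 other plastid genes had medians against ethylene glycol of -0.13 for NaCl, -0.14 for sorbitol and -0.12 for PEG. The 2 root markers had mean differences of 0.26, 0.27 and -0.19 in that order, and their part was not tested. Outside the members, the smallest adjusted p of rpl32 over the solute comparisons in limma was 0.0348. That of the atp9 probe set 13545206, shared with a nuclear locus, was 0.0481.

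The called member was ndhK, an iron-sulphur subunit of the NDH complex. In NaCl at 50 and 100 mM it had 6.83 and 6.89 in run 2 and 7.20 and 7.25 in run 1. In ethylene glycol at the same labelled doses, not matched for osmotic strength, it had 7.09 and 7.10 in run 2 and 7.60 and 7.70 in run 1. Within each run both NaCl arrays were below both ethylene glycol arrays, although the pooled arrays overlapped because run 1 stood higher. The difference of -0.33 (SE 0.07, adjusted p = 0.0342) was -0.24 in run 2 and -0.43 in run 1. Across the remaining doses, ethylene glycol at 150 and 200 mM had 6.94 and 7.14 in run 2 and 7.56 and 7.68 in run 1, and the control had 6.87 in run 2 and 7.48 in run 1. Against ethylene glycol, ndhK stood at -0.22 in sorbitol (adjusted p = 0.0956) and -0.17 in PEG (adjusted p = 0.294), neither called.

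**Figure D5:**
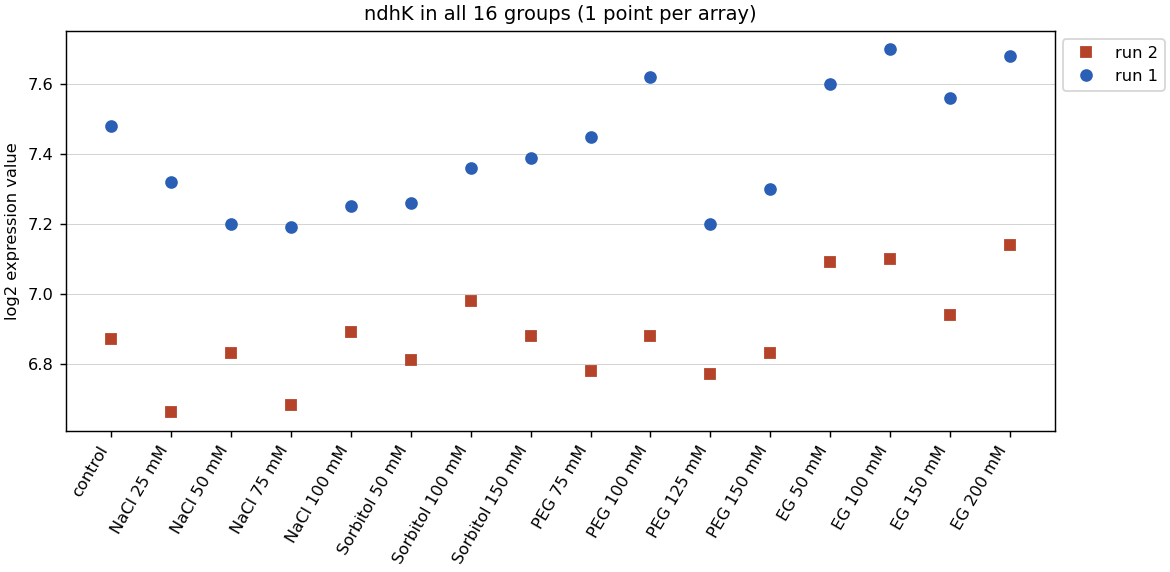
Log2 expression value of ndhK (y axis) on each array of the 16 groups (x axis; EG, ethylene glycol), by run. In both runs the NaCl arrays at 50 and 100 mM (6.83 and 6.89 in run 2, 7.20 and 7.25 in run 1) lie below the ethylene glycol arrays at the same labelled doses.

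The ndhK call did not hold without the run as a block (adjusted p = 1.0) or without a variance trend (adjusted p = 0.105). It was also lost when any 1 of 6 of the 8 arrays compared was left out, with adjusted p values of 0.0964 to 0.204, while the difference stayed between -0.35 and -0.29. The arrays were the 4 ethylene glycol arrays and the run 1 arrays of NaCl at 50 and 100 mM. Next after ndhK for sorbitol minus ethylene glycol came psbM (-0.38), ndhE (-0.22) and, among mitochondrial probe sets, nad1 probe set 13545385 (-0.22), each with an adjusted p of 0.110.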

How the data were processed

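Values on the log2 scale were deposited by the authors. They were made with GCRMA and with the Affymetrix programs Expression Console and Transcriptome Analysis Console; the submitters' processing notes name these tools without an order or versions. The log base was read from the range of 0.2 to 12.45, and neither it nor any scaling step is given in the sources used here. All 32 value columns were matched to samples, leaving 0 set aside.

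Probe sets were named from the array annotation: 16746 listed 1 gene, 758 several and 10973 none. RefSeq (TAIR10.1) served for names and gene order. All 38 plastid members matched it and 0 mitochondrial ones did. Every probe set was tested by itself, with no filter, by limma 3.58.1 in R 4.3.3 (1 mean per group, the run as a block, a variance trend), with Benjamini-Hochberg adjustment over 28477 probe sets at 0.05. Intervals are 95% limma intervals. Slopes are per 100 mM with the control at 0. In the fit with a slope per run, the solutes shared 1 intercept per run. Scripts were tested on simulated data. With 2 arrays per group, the number of arrays limits the precision.

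Title numbers paired the arrays: deviations from group means correlated at 0.502 to 0.768 over 120 pairs of groups (median 0.673), and the median residual SD was 0.190 with the block and 0.272 without. Tables and figures used Python 3.11.15 with pandas 2.3.3, scipy 1.17.1 and matplotlib 3.10.9.

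The members, gene lists and comparisons were chosen with earlier results of these data known. The text names up to 6 called members per organelle and direction and, where none was called, up to 3 with the smallest p, besides counts that cover every member. The marker lists had 2 matches of 14 each. Lists of sigma factors and alternative oxidases matched 0 named probe sets. A planned list of nuclear respiratory chain genes, to be found by description, was not compared. Lists of nuclear NDH subunits and of other mitochondrial genes were added after the names in the annotation were seen. Alternatives were the fit without the block, centred or quantile-normalised arrays, 1 probe set per gene, no dim probe sets, no variance trend, each array left out, only the compared groups, and slopes without the control.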

Additional observations from a re-analysis of the deposited data

Results flagged for a closer look

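Some members had every dose of a solute above the control in run 2 and below it in run 1, or the reverse. Under NaCl this held for 25 of 38 plastid members and 6 of 20 mitochondrial probe sets, beside 7.69% of the whole array. Under sorbitol it held for 15 plastid members and 3 mitochondrial probe sets, beside 10.1%. Under PEG it held for 6 plastid members and 7 mitochondrial probe sets, of which 1 ran in the reverse direction, beside 6.77%. Under ethylene glycol it held for 11 plastid members and 7 mitochondrial probe sets, beside 9.0%. In this form the difference between runs was not tested. All of these counts rest on 1 control array per run, and the 4 solutes share it. In the fit with a slope per run, 0 members were called, with 26 plastid and 11 mitochondrial probe sets at an unadjusted p under 0.05 for NaCl.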

How the results depend on the processing

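Settings were changed one at a time. The run difference called 36 plastid and 19 mitochondrial probe sets, and 35 to 37 and 19 to 19 when each array was left out in turn; with 1 probe set per gene the mitochondrial count was 10, from fewer probe sets (11). With no replicate block, 0 plastid members were called for solutes at shared doses, against 1 with the block, and 0 with no variance trend; the block changed no other solute call. Leaving out each array in turn gave 0 to 1 there. It also gave 0 to 2 plastid calls for solute averages, 0 to 1 for dose slopes and 0 to 2 for single doses, each highest count without control replicate 1, and 0 for any difference among groups and for every mitochondrial solute comparison. Members named for a comparison kept direction and call in 4109 repeats, gained the call in 3 (psbB without control replicate 1) and lost it in 8 (ndhK); none reversed. After centring, the plastid members at an unadjusted p under 0.05 numbered 11 for NaCl, 13 for sorbitol and 1 for PEG against ethylene glycol, and after quantile normalisation 14, 20 and 1, instead of 19, 22 and 7; the cause was not tested. The median run difference of all probe sets was 0.06 as deposited, 0.13 centred and 0.02 after quantile normalisation. With 2 arrays per group and 1 control array per run, the median half-width of the 95% interval was 0.19 (plastid) and 0.17 (mitochondrial) for a solute average and 0.24 and 0.22 for a single dose.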

Other observations

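The spread within a run differed. The SD over the 16 run 2 arrays was smaller than that over the 16 run 1 arrays for 34 of 38 plastid members and 18 of 20 mitochondrial probe sets. The median SD was 0.09 in run 2 and 0.15 in run 1 for plastid members, and 0.08 and 0.13 for mitochondrial ones, treatments included.

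Among plastid genes with symbols outside the rule, cemA, ccsA, rps16 and rps18 were lower in run 2 by 0.74, 0.91, 0.92 and 0.89, and rps4 was higher by 0.33 (limma, adjusted p at most 1.49e-07). The mitochondrial cytochrome c biogenesis genes ccb203 and ccb382 were higher in run 2 by 1.11 and 0.40.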
